A study of Homo sapiens with 7 samples.

Results

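CTCF loops and RAD21 loops of unmodified HEC-1-B cells were set against each other, using the 2 loop lists made from the same cells with an antibody against either protein. The CTCF list held 19313 loops and the RAD21 list 16788, together 36101 of the 135475 loops in the 7 lists of the study. A loop is a pair of genomic intervals, its anchors, that were joined to each other in at least 2 counts. The sources used here do not state what the count is, and it was taken as the number of supporting read pairs. A loop was called shared when both its anchors, extended by 5 kb, overlapped the matching anchors of a loop in the other list, and CTCF-only or RAD21-only when no such loop was listed. HEC-1-B is an established human uterine adenocarcinoma line. Both libraries came from its wild type genotype with no auxin or other treatment, and the groups therefore differ in the antibody alone as far as the labels say. The other lists used here came from wild type HEC-1-B cells with a ZNF143 antibody and from the ZNF143KO line, in which ZNF143 is deleted, with the CTCF and the RAD21 antibody. Each group was 1 library, so no test across replicates was possible, and every interval below is a 95% Wilson interval unless stated otherwise. These intervals cover counting error in the libraries at hand only, and loops with an anchor in common depend on each other.

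CTCF is a zinc-finger protein that binds DNA at a long directional motif. RAD21 is a subunit of cohesin, the ring complex that extrudes loops of chromatin and is held up where it meets bound CTCF, most often at pairs of motifs that point towards each other. HiChIP joins neighbouring DNA ends inside fixed nuclei, pulls down the junctions that an antibody binds and sequences them, so a CTCF loop and a RAD21 loop over the same interval are separate reports of a contact, each through another protein. No sequence or annotation of the build named for these lists, hg19, was used here, so anchors are given by position and were neither assigned to genes nor searched for the CTCF motif.

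The lists overlapped for about every other loop, but for nearly all loops of high count. Of the CTCF loops, 8968 (46.4%, 45.7 to 47.1) were shared, and of the RAD21 loops 8756 (52.2%, 51.4 to 52.9). The numbers of shared loops were close to each other, so the higher RAD21 share goes with the shorter RAD21 list. Shared loops carried 66.8% of the total count of the CTCF list and 70.8% of that of the RAD21 list. Their mean count was 6.02 in both lists, against 2.59 for CTCF-only and 2.71 for RAD21-only loops. A count of 2, the lowest that was listed, was held by 29.5% of shared CTCF loops and 68.0% of CTCF-only loops, and by 31.2% of shared and 67.2% of RAD21-only loops. One-list loops were thus mostly at the lower limit of the lists, where a loop with 1 count in the other library would not be listed there.

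The shared share rose at each step of the count. Among CTCF loops it was 27.3% (26.5 to 28.2) at a count of 2, 46.4% (44.8 to 48.0) at 3, 62.3% (60.1 to 64.5) at 4 and 78.9% (77.4 to 80.4) at 5 to 9. It reached 95.3% (93.8 to 96.5) at 10 to 19 counts and 99.4% (97.8 to 99.8) at 20 or more, where 329 of 331 loops were shared. Among RAD21 loops the share was 33.6% (32.6 to 34.6) at a count of 2, 52.8% (51.1 to 54.6) at 3 and 65.7% (63.4 to 67.9) at 4. It was 80.4% (78.8 to 81.9) at 5 to 9, 92.9% (91.0 to 94.4) at 10 to 19 and 96.8% (94.6 to 98.2) at 20 or more. RAD21 loops were shared more often than CTCF loops at counts of 2 and 3, and the intervals of the 2 lists overlapped in every class from 4 upwards. At 20 or more, 2 CTCF loops and 12 RAD21 loops were in one list alone.

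**Figure D1:**
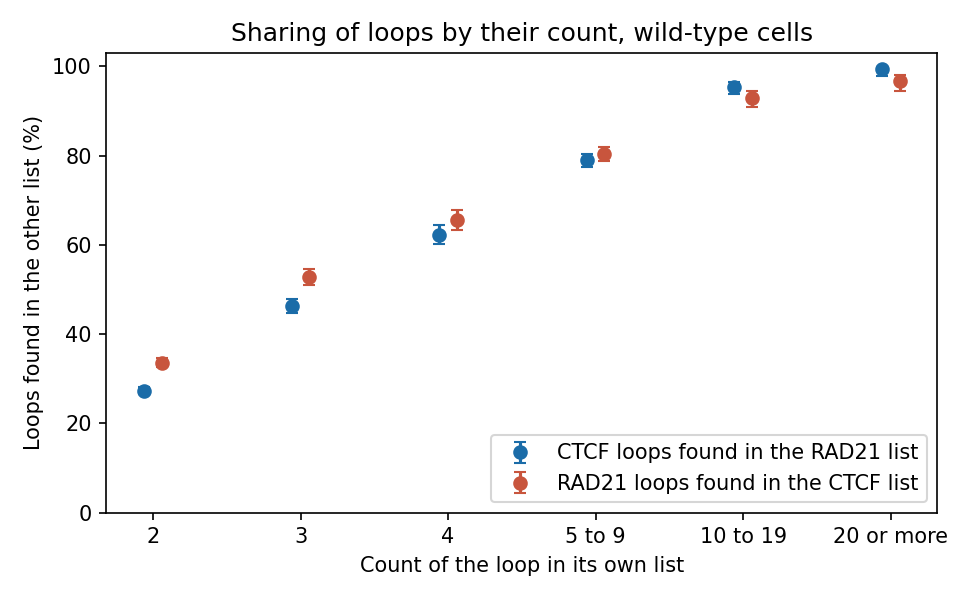
Percentage of CTCF loops (blue) and of RAD21 loops (red) found in the other list, by the count of the loop in its own list, with 95% Wilson intervals. The share climbs from 27.3% and 33.6% at a count of 2 to 99.4% and 96.8% at 20 or more.

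Most shared loops had the same coordinates in both lists. For 5427 of the 8968 shared CTCF loops (60.5%) the nearest RAD21 loop had identical anchors, and for 7494 (83.6%) there was a single RAD21 partner. The sources used here do not say how the anchor intervals were set, so identical coordinates cannot be read as independent agreement on position. Just inside the limit of the rule were 951 CTCF loops found only through the 5 kb extension, with a mean count of 3.15 and a median span of 121.6 kb. Just outside were 833 loops found only with 10 kb, with a mean count of 2.85 and a median span of 129.3 kb. The matching RAD21 numbers were 732 loops inside (mean count 2.96) and 660 outside (mean count 2.86). Loops on either side of the limit were alike in having low counts.

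The strongest shared loops showed high counts for both proteins. The loop with the highest summed count joined chromosome 16, 55498344 to 55499850, to 55735210 to 55738250, over 237.6 kb, with 401 CTCF counts and 432 RAD21 counts. In ZNF143-deleted cells it had 70 CTCF and 78 RAD21 counts, and in the wild-type ZNF143 list 4. The next joined chromosome 5, 140254134 to 140256182, to 140418923 to 140421630, with 261 CTCF and 378 RAD21 counts. It was again listed for both proteins in deleted cells, with 37 and 65 counts, and had 2 counts for ZNF143. On chromosome 7, a loop from 39619595 to 39621246 to the anchor at 39785115 to 39786686 had 156 CTCF and 196 RAD21 counts, and 26 and 45 in deleted cells. On chromosome 17, a shorter loop of 62.6 kb from 43212095 to 43213674 to 43274551 to 43276348 had the higher count for CTCF, 212 against 130. That order was the same in deleted cells, with 99 CTCF and 36 RAD21 counts. All 4 loops were listed in the 5 lists examined, and each of their anchors took part in several CTCF loops (6 to 18).

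The CTCF and RAD21 counts of shared loops rose together across loops, with wide scatter. Across the 8968 shared CTCF loops and their nearest RAD21 partners, Spearman's rho of the 2 counts was 0.553, over the 1143 loops with a summed count of 20 or more it was 0.387, and over the 329 loops with at least 20 CTCF counts it was 0.650. These are descriptions across loops of 2 libraries, and loops are not replicates. With each count divided by the total of its list, the median ratio of RAD21 to CTCF over all shared loops was 1.085, and the RAD21 count was at least 2-fold above the CTCF count for 1317 loops (14.7%) and at least 2-fold below it for 704 (7.85%). The imbalance between these numbers moved with the scaling and with the list the pairing began from. With the counts as deposited, 1295 loops were at least 2-fold above and 1229 at least 2-fold below, and the median ratio was 1. Starting from the 8756 shared RAD21 loops and their nearest CTCF partners, on the scaled counts, 1082 were at least 2-fold above (12.4%) and 838 at least 2-fold below (9.57%). Over the 329 loops with at least 20 CTCF counts, a choice that favours CTCF, 9 were at least 2-fold above (2.74%) and 30 at least 2-fold below (9.12%). At low counts a ratio can take few values, so 2 against 4 counts passed the limit in one direction after scaling and not in the other.

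Differences of at least 2-fold were more frequent where the partner used a neighbouring anchor and not the same one, but their direction depended on the list the pairing began from. Among shared loops with a summed count of 20 or more, 161 of 1143 were at least 2-fold higher for RAD21 (14.1%) and 68 at least 2-fold lower (5.95%). With identical coordinates in both lists 60 of 721 were 2-fold higher (8.32%), and with other partners 101 of 422 (23.9%). Counts at least 2-fold lower made up 5.69% and 6.40%. Starting from the RAD21 loops, 107 of 1120 were at least 2-fold higher (9.55%) and 98 at least 2-fold lower (8.75%), and among the 399 with other partners 47 were higher (11.8%) and 57 lower (14.3%). The 4 loops farthest apart, taken from the CTCF list for their ratios, all had a partner with other coordinates. A RAD21 loop could be the partner of several CTCF loops. Whether these 4 partners also had a closer CTCF loop was not examined, so their ratios need not be differences between the proteins. On chromosome 5, the CTCF loop from 129102107 to 129104883 to 129187974 to 129189394 had 2 counts, and its RAD21 partner, whose left anchor lay at 129106411 to 129107990, had 58. On chromosome 6, the CTCF loop from 13908420 to 13910049 to 14042516 to 14045568 had 3 counts, and the RAD21 loop ending at 14046277 to 14047506 had 69. In both cases 1 anchor was the same in both lists, and the midpoints of the other lay 3.71 kb and 2.85 kb apart. In deleted cells the chromosome 5 loop had 10 counts for each protein and the chromosome 6 loop 19 for CTCF and 2 for RAD21. In the opposite direction, a loop on chromosome 19 from 48793317 to 48795313 to 48817129 to 48820597 had 18 CTCF counts and 2 RAD21 counts, and in deleted cells 14 CTCF counts with no RAD21 loop listed. A loop on chromosome 12 from 6860597 to 6863566 to 6938275 to 6939481 had 19 CTCF counts against 3, and in deleted cells 11 CTCF counts with no RAD21 loop listed. Both of these loops, which were also in the ZNF143 list with 2 counts, were higher for CTCF in both genotypes.

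**Figure D2:**
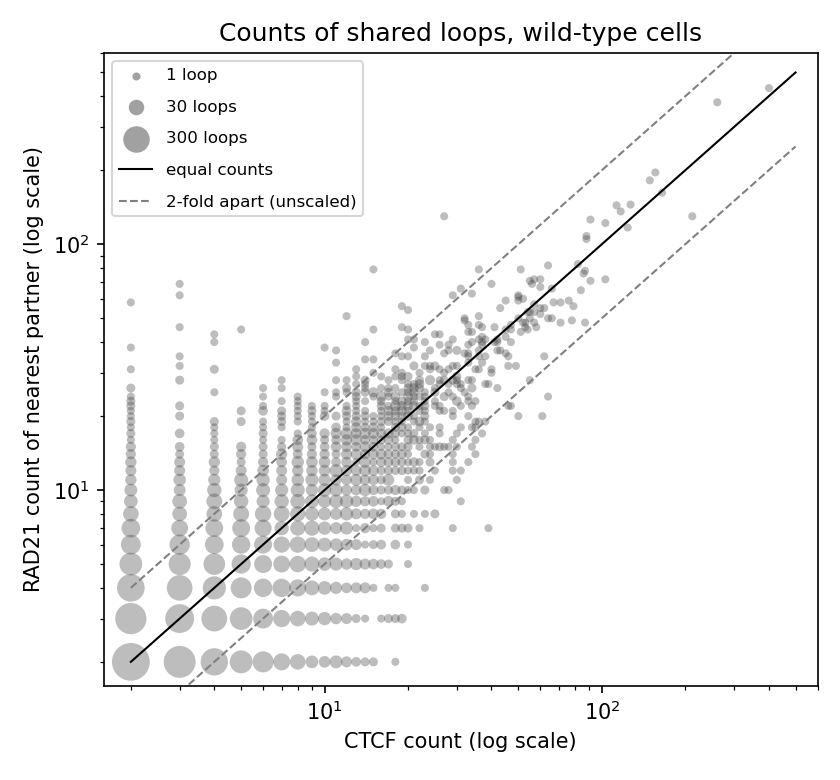
CTCF count against the RAD21 count of the nearest partner for the 8968 shared CTCF loops, on log axes, with the area of a point growing with the number of loops at that pair of counts. The solid line marks equal counts and the dashed lines 2-fold differences before scaling. The strongest loops, up to 401 and 432 counts, lie near the line, and the scatter widens towards the lowest counts.

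Shared loops were shorter than one-list loops over all counts. The span, the distance between anchor midpoints, had a median of 146 kb in shared CTCF loops (quartiles 70.8 and 276 kb) and 163 kb in CTCF-only loops (70.9 and 331 kb). In the RAD21 list the medians were 148 kb for shared loops (72.4 and 278 kb) and 177 kb for RAD21-only loops (82.8 and 349 kb). The ratio of shared to one-list medians was 0.895 (0.864 to 0.932) for CTCF and 0.836 (0.805 to 0.871) for RAD21, with intervals built from the order statistics of both medians. RAD21-only loops were longer than CTCF-only loops, with a ratio of 1.09 (1.05 to 1.13), and the whole lists differed by a ratio of 1.04 (1.01 to 1.07). For spans of 40 kb to 1 Mb alone, the ratio of whole lists was 1.03 with an interval that includes 1 (0.9985 to 1.05).

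For CTCF the order turned with the count. At a count of 2 the ratio of shared to CTCF-only medians was 0.938 (0.886 to 1.001), an interval that includes 1, and at 5 to 9 it was 1.22 (1.07 to 1.41), with medians of 135.1 and 110.9 kb. At 10 to 19 counts the shared median was 120.2 kb and the CTCF-only median 82.6 kb, a ratio of 1.46 (1.03 to 2.26) that rests on 45 CTCF-only loops. Among CTCF loops of 5 to 19 counts, those without a RAD21 partner were thus the shorter ones. For RAD21 the ratio was 0.814 (0.763 to 0.855) at a count of 2 and 0.985 (0.855 to 1.15) at 5 to 9. At 10 to 19 it was 1.34 (0.919 to 1.94), and both of these intervals include 1. With loops under 10 counts left out of both lists before matching, it was 0.869 (0.747 to 0.996).

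By span class, sharing was lowest for the longest loops of either protein. The shared share of CTCF loops was 44.9% (43.1 to 46.6) at 20 to 50 kb, 50.1% (48.7 to 51.5) at 100 to 200 kb and 27.3% (23.1 to 32.0) at 1 to 2 Mb. For RAD21 loops it was 54.0% (52.0 to 56.0), 54.6% (53.1 to 56.1) and 28.5% (24.1 to 33.3) in the same classes. The RAD21 list held fewest loops relative to the CTCF list at short spans. There were 3106 CTCF and 2415 RAD21 loops of 20 to 50 kb, a ratio of RAD21 to CTCF of 0.778 (0.737 to 0.820, from the exact binomial split), and 381 and 365 loops of 1 to 2 Mb, a ratio of 0.958 (0.828 to 1.11). The interval at 20 to 50 kb overlapped that at 50 to 100 kb (0.808 to 0.890) and lay below that at 100 to 200 kb (0.862 to 0.936). Over all spans the ratio was 0.869 (0.851 to 0.888).

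**Figure D3:**
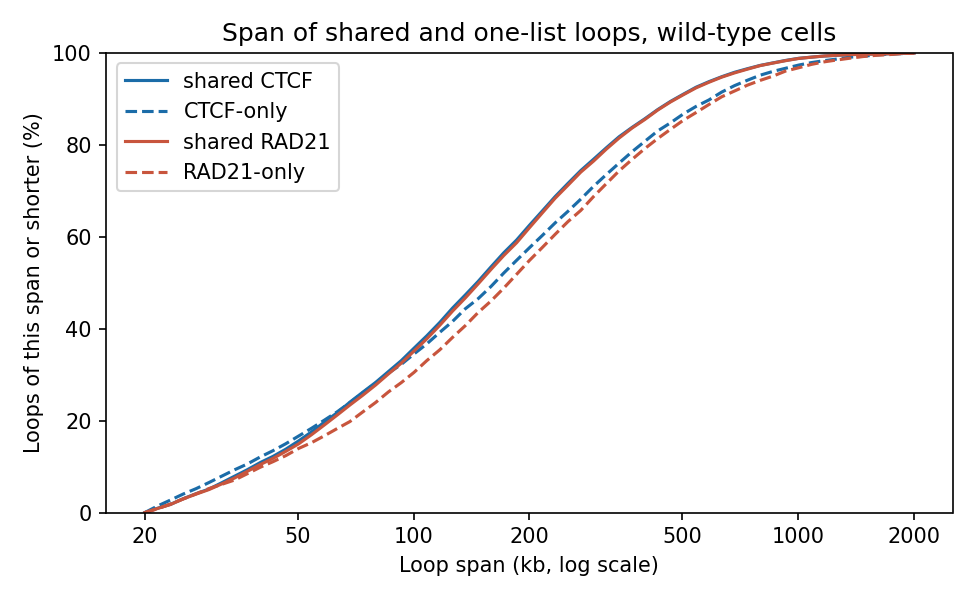
Percentage of loops at or below a span, against the span in kb on a log axis, for shared (solid) and one-list (dashed) loops of the CTCF list (blue) and the RAD21 list (red). The shared curves of both lists nearly coincide, with medians of 146 and 148 kb, and the RAD21-only curve lies farthest to the right with a median of 177 kb.

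Anchors coincided more often than loops, and most anchors with many loops were held in common. The CTCF list had 16948 anchors and the RAD21 list 15742. Within 5 kb of an anchor of the other list lay 68.2% (67.5 to 68.9) of CTCF anchors and 72.3% (71.6 to 73.0) of RAD21 anchors. Of the 10920 CTCF anchors that overlapped a RAD21 anchor, 9076 (83.1%) had both edges in common and a further 1749 (16.0%) had 1 edge in common. Neither edge was in common for 95 (0.87%). Degree, the number of loops of an anchor, averaged 2.28 for CTCF and 2.13 for RAD21, and 51.2% and 52.6% of anchors had a single loop. CTCF anchors also listed for RAD21 had a mean degree of 2.72, against 1.34 for CTCF anchors that were not. For RAD21 anchors the means were 2.44 and 1.33.

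The share of anchors that were listed for the other protein rose with degree. It was 52.3% (51.2 to 53.3) for CTCF anchors with 1 loop, 75.7% (74.3 to 77.1) with 2, 88.2% (87.0 to 89.4) with 3 to 4 and 97.5% (96.6 to 98.2) with 5 to 9. Of the 268 CTCF anchors with 10 loops or more, 266 were RAD21 anchors, and all 152 RAD21 anchors of that degree were CTCF anchors. At the 11059 anchors that could be paired one to one, the degree was higher for CTCF at 35.7%, higher for RAD21 at 25.4% and equal at 38.9%. The 266 paired CTCF anchors with 10 loops or more had 1 to 24 RAD21 loops, with a median of 8, and 96 of them had 10 or more in both lists. Chosen the other way, the 152 RAD21 anchors with 10 loops or more had 5 to 27 CTCF loops, with a median of 11. A choice by high degree in 1 list favours that list, so the first of these medians alone does not show fewer RAD21 loops at hubs.

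The same anchors headed both lists. An anchor on chromosome 12 had the highest degree in the CTCF list and was tied for the highest in the RAD21 list. It lay at 52416866 to 52420199 in the CTCF list and 52416866 to 52420293 in the RAD21 list. It had 27 CTCF loops, of which 19 were shared, and 24 RAD21 loops, of which 18 were shared. In ZNF143-deleted cells it had 22 RAD21 loops and 11 CTCF loops. The anchor on chromosome 20 at 48802364 to 48803606 had 24 loops in each list, 16 of them shared. In deleted cells it had 20 CTCF and 13 RAD21 loops. Both hubs were ZNF143 anchors too, with 8 and 4 loops.

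Shared loops more often had an end at an anchor of high degree. An end with 5 loops or more was found in 65.4% (64.4 to 66.4) of shared CTCF loops and 51.8% (50.8 to 52.7) of CTCF-only loops, and in 57.6% (56.6 to 58.6) of shared RAD21 and 41.8% (40.7 to 42.9) of RAD21-only loops. At a count of 2 these shares were 55.9% (54.1 to 57.8) and 47.1% (46.0 to 48.3) among CTCF loops. Among RAD21 loops they were 49.6% (47.8 to 51.5) and 37.4% (36.1 to 38.7). At counts of 5 to 9 the intervals of shared and one-list loops overlapped in both lists, with 70.7% and 73.6% for CTCF and 62.5% and 62.9% for RAD21. The difference in degree was therefore seen among weak loops and was not detectable among loops of 5 to 9 counts.

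Loops of an anchor can lead to higher coordinates, to lower ones or to both, and RAD21 anchors more often had all of their loops on 1 side. Among anchors with 3 to 4 loops, all loops led to 1 side at 905 of 2798 CTCF anchors (32.3%, 30.6 to 34.1) and 1046 of 2640 RAD21 anchors (39.6%, 37.8 to 41.5). With 5 to 9 loops the shares were 14.7% (13.1 to 16.5) and 20.2% (18.1 to 22.5). With 10 or more they were 1.87% (0.800 to 4.29) and 5.92% (3.15 to 10.9), where the intervals overlapped. The order was the same in ZNF143-deleted cells, where 30.8% (28.9 to 32.8) of CTCF anchors with 3 to 4 loops and 40.2% (37.7 to 42.7) of such RAD21 anchors had all loops on 1 side. With 5 to 9 loops these were 11.1% (9.38 to 13.2) and 22.3% (18.9 to 26.2). Wild-type ZNF143 anchors with 5 to 9 loops stood below both wild-type lists, at 7.62% (5.80 to 9.96). Anchors of CTCF and RAD21 with 3 to 9 loops thus differed in this measure beyond counting error in both genotypes.

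**Figure D4:**
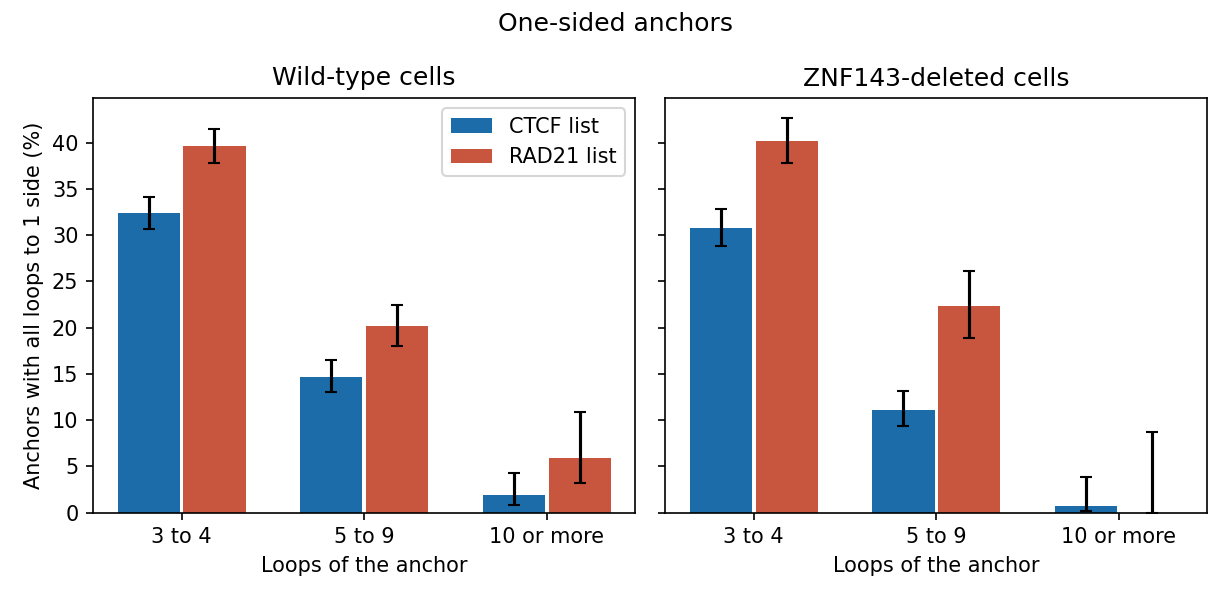
Percentage of anchors whose loops all lead to 1 side, by the number of loops of the anchor, for the CTCF list (blue) and the RAD21 list (red) in wild-type and in ZNF143-deleted cells, with 95% Wilson intervals. RAD21 bars stand above CTCF bars in both genotypes at 3 to 4 and 5 to 9 loops; no bar is drawn for the 40 RAD21 anchors of deleted cells with 10 or more loops, none of which had all loops on 1 side.

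The main side of an anchor was mostly the same for both proteins. With at least 2 loops in each list and unequal numbers on the 2 sides, 3302 of 3639 paired anchors (90.7%, 89.7 to 91.6) had the same main side. Shared loops enter both lists and fix much of this agreement. Taking CTCF-only loops against RAD21-only loops at the same anchor, which leaves out the loops called shared, 345 of 534 anchors (64.6%, 60.5 to 68.5) had the same main side. With minimums of 1 and 3 loops the share was 59.2% and 60.0%. One-list loops include near misses of the 5 kb rule. With 10 kb, 8.05% of CTCF-only and 8.22% of RAD21-only loops were found in the other list, and with 25 kb 25% and 24.55%. Near misses from the same anchor mostly lead to the same side, and their part in this agreement was not tested. Shared loops and RAD21-only loops of an anchor had the same main side at 562 of 738 anchors (76.2%, 73.0 to 79.1), and shared and CTCF-only loops at 699 of 1045 (66.9%, 64.0 to 69.7). RAD21-only loops thus followed the side of the shared loops more often than CTCF-only loops did, though the 2 sets of anchors differ. The gap was smaller with a minimum of 1 loop, at 65.8% (64.3 to 67.4) against 61.7% (60.2 to 63.2). With a minimum of 3 the shares were 77.5% and 65.6%. At the chromosome 20 hub, 19 of 24 CTCF loops and 18 of 24 RAD21 loops led to higher coordinates. At the chromosome 12 hub these numbers were 15 of 27 and 16 of 24.

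Loops of one list only were then divided by whether their anchors were known to the other list. Of the 10345 CTCF-only loops, 4131 (39.9%, 39.0 to 40.9) had both anchors at RAD21 anchors, 5216 (50.4%, 49.5 to 51.4) had 1 and 998 (9.65%, 9.09 to 10.2) had none. Of the 8032 RAD21-only loops, 3099 (38.6%, 37.5 to 39.6) had both anchors at CTCF anchors, 4079 (50.8%, 49.7 to 51.9) had 1 and 854 (10.6%, 9.98 to 11.3) had none. The 2 lists were close to each other in this division. Loops with both anchors in the other list were the longest, with median spans of 202 kb for CTCF-only and 207 kb for RAD21-only loops, and those with no anchor there the shortest, at 114.6 and 149 kb.

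The strongest one-list loops were mostly loops with an anchor that the other list lacked. With 10 counts or more, both anchors were CTCF anchors for 6 of 74 RAD21-only loops (8.11%, 3.77 to 16.6), against 38.8% (37.5 to 40.1) at a count of 2. For CTCF-only loops the numbers were 12 of 47 (25.5%, 15.2 to 39.5) and 38.4% (37.2 to 39.5), which overlap, and between these ends the share was higher, at 43.2% (41.3 to 45.0) for 3 to 4 counts and 45.0% (41.0 to 49.0) for 5 to 9. For RAD21-only loops it was 34.97% (30.9 to 39.2) at 5 to 9. Of the 62 anchors of strong RAD21-only loops that the CTCF list lacked, 13 (21.0%, 12.7 to 32.6) were anchors of the CTCF list of deleted cells. Of the 35 anchors of strong CTCF-only loops that the RAD21 list lacked, 13 (37.1%, 23.2 to 53.7) were anchors of the RAD21 list of deleted cells. One-list loops under 10 counts had similar shares, 26.4% to 30.6% over their count classes for RAD21-only and 23.3% to 39.3% for CTCF-only loops, so strong loops did not stand apart in this.

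Among RAD21-only loops the highest count, 90, belonged to a loop on chromosome 12 from 63107659 to 63111755 to 63187146 to 63188782. No CTCF loop was listed even with an extension of 25 kb, 1 of its anchors was a CTCF anchor, and in deleted cells it had 10 RAD21 counts and no CTCF loop. The third in rank, with 30 counts, ended at the same right anchor and began at 63118240 to 63120757, so both counts depend on that anchor. The second in rank joined chromosome 1, 155561136 to 155562583, to 155681957 to 155684331, with 45 RAD21 counts. Neither of its anchors was a wild-type CTCF anchor, yet in deleted cells it was listed for both proteins, with 41 CTCF and 59 RAD21 counts. A loop on chromosome 11 from 130523286 to 130525000 to 130696809 to 130698916 had 24 RAD21 counts and was in none of the other 4 lists examined.

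Among CTCF-only loops the highest count was 21, on chromosome 7 from 99727922 to 99731383 to 99756047 to 99757747. It spanned 27.2 kb, its left anchor had 15 CTCF loops, and the other 4 lists examined did not hold it. The second, on chromosome 2 from 65215053 to 65216569 to 65266796 to 65268773, had 20 CTCF counts. A RAD21 loop with 2 counts appeared there with an extension of 10 kb, and in deleted cells it had 4 CTCF and 5 RAD21 counts. The third, on chromosome 16 from 46406590 to 46408416 to 46424606 to 46437156, had 18 counts. A RAD21 loop with 2 counts appeared with an extension of 25 kb, which is more than the span of 23.4 kb, so that match need not join the same pair of anchors. The ZNF143 list held the CTCF loop with 2 counts, and neither list of deleted cells did. The fourth, on chromosome 1 from 20848374 to 20849745 to 20986981 to 20989353, had 17 counts. A RAD21 loop with 9 counts appeared there with an extension of 25 kb, and in deleted cells it was listed for RAD21 with 3 counts and not for CTCF. Of these 4 loops, 3 had a RAD21 loop with the 25 kb extension, and none had both anchors among RAD21 anchors. None of the 4 RAD21-only loops had a CTCF loop with that extension. Over all one-list loops the shares found at 25 kb were alike. They were 2586 of 10345 CTCF-only loops (25%, 24.2 to 25.8) and 1972 of 8032 RAD21-only loops (24.55%, 23.6 to 25.5). The 4 named loops of each class therefore do not show a difference between the classes.

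The lists of ZNF143-deleted cells and the wild-type ZNF143 list took no part in the choice of classes, and shared loops were found in them far more often than one-list loops. In the CTCF list of deleted cells were 57.2% (56.2 to 58.2) of shared CTCF loops and 23.4% (22.5 to 24.2) of CTCF-only loops. In the RAD21 list of deleted cells were 51.1% (50.1 to 52.2) of shared RAD21 loops and 15.6% (14.8 to 16.4) of RAD21-only loops. At a count of 2 the difference between shared and one-list loops was 22.1 percentage points (20.0 to 24.1, Newcombe interval) for CTCF loops in the CTCF list. It was 22.1 points (20.2 to 24.1) for RAD21 loops in the RAD21 list. A shared loop was thus found again more often than a one-list loop of the same count. In the wild-type ZNF143 list were 19.2% (18.4 to 20.1) of shared CTCF loops and 7.12% (6.64 to 7.64) of CTCF-only loops. Of shared RAD21 loops it held 18.8% (18.0 to 19.7), and of RAD21-only loops 5.13% (4.67 to 5.63). CTCF-only loops exceeded RAD21-only loops there by 1.99 points (1.30 to 2.68).

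One-list loops of the 2 proteins differed in which list of deleted cells held them. CTCF-only loops were found in the CTCF list alone in 1865 cases and in the RAD21 list alone in 675, a ratio of 2.76 (2.53 to 3.02). RAD21-only loops were found in the CTCF list alone in 832 cases and in the RAD21 list alone in 885, a ratio of 0.940 (0.855 to 1.03). Among RAD21-only loops with a count of 2 this ratio was 1.14 (1.002 to 1.29), on the other side of 1, and among CTCF-only loops with a count of 2 it was 2.63 (2.34 to 2.95). Shared CTCF loops lay between, at 1.43 (1.33 to 1.53), as did shared RAD21 loops, at 1.38 (1.29 to 1.48). The CTCF list of deleted cells is the longer of the 2, with 15597 loops against 10804, so the ratios are to be read against each other and not against 1. In neither list of deleted cells were 70.1% (69.2 to 71.0) of CTCF-only and 74.0% (73.1 to 74.99) of RAD21-only loops, against 28.6% of the shared loops of either list. With 10 counts or more, the CTCF list of deleted cells held 32 of 47 CTCF-only loops (68.1%, 53.8 to 79.6) and 13 of 74 RAD21-only loops (17.6%, 10.6 to 27.8). The RAD21 list of deleted cells held 14 of those 47 (29.8%, 18.6 to 44.0) and 38 of those 74 (51.4%, 40.2 to 62.4). The strong loops of either class were thus found again mainly with the antibody that had listed them in wild-type cells. The lists of the 2 genotypes were also laid out in different file formats, so genotype and list preparation cannot be told apart, while within a genotype the CTCF and RAD21 lists had the same format.

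**Figure D5:**
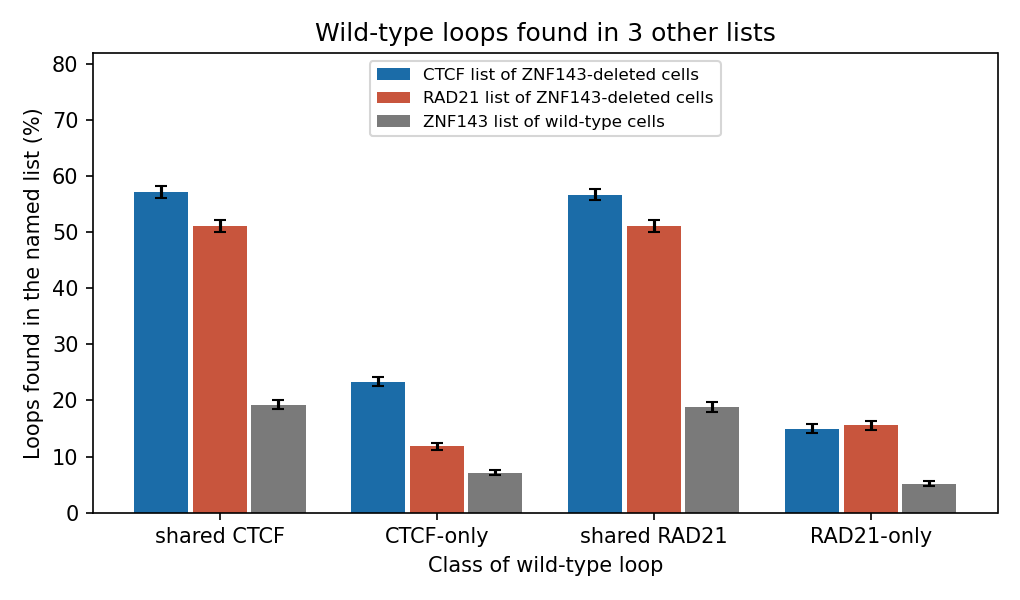
Percentage of shared, CTCF-only and RAD21-only wild-type loops found in the CTCF list (blue) and the RAD21 list (red) of ZNF143-deleted cells and in the wild-type ZNF143 list (grey), with 95% Wilson intervals. CTCF-only loops were found in the CTCF list at 23.4% and in the RAD21 list at 11.9%. RAD21-only loops were found at 14.9% and 15.6%, and in the opposite order, at 12.4% and 11.3%, among those with a count of 2. The intervals of the 2 RAD21-only shares overlap in both cases.

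Anchors of one list alone behaved in the same direction. Of the 5388 CTCF anchors with no RAD21 anchor nearby, 41.3% (40.01 to 42.6) were anchors of the CTCF list of deleted cells and 23.9% (22.8 to 25.1) of the RAD21 list. Of the 4358 RAD21 anchors with no CTCF anchor nearby, 27.01% (25.7 to 28.3) were anchors of the CTCF list of deleted cells and 29.4% (28.1 to 30.8) of the RAD21 list. Anchors held by both proteins were found at 75.6% and 69.2% when counted from the CTCF list. A ZNF143 anchor lay at 42.4% (41.5 to 43.3) of CTCF anchors also listed for RAD21 and at 19.9% (18.9 to 21.0) of CTCF anchors that were not.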

How the data were processed

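HiChIP libraries of wild-type HEC-1-B cells (1 for CTCF, 1 for RAD21) were compared, and 3 further lists, 1 library each, served as outside measures. The submitters' processing notes name HiC-Pro and hg19. The loop caller, filters and any pooling are not given in the sources used here. The authors deposited 1 loop list per library, in which each loop has a whole-number count of 2 or more that is not scaled to depth, as the values show. Its meaning is not given in the sources used here, and reading it as supporting read pairs is an assumption. The CTCF list totalled 80726 counts and the RAD21 list 74410. These are sums over listed loops, and the depth of the libraries is unknown.

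Loops were matched with Python 3.11.15, pandas 2.3.3 and scipy 1.17.1: both anchors, extended by 5 kb, had to overlap the corresponding anchors by at least 1 bp. The partner of a loop was the match with the nearest midpoints. Overlapping anchors of a list were merged. The matching was tested on simulated lists. Positions are counted from 1. The planned counts of genes and motifs at anchors were not made, since no genome or annotation of hg19 was used here.

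Named were the 4 shared loops with the highest summed count, the 4 loops of each one-list class with the highest count, the 2 highest and 2 lowest count ratios among shared loops with a summed count of 20 or more, and the 2 anchors of highest degree per list. The loops, lists and rules were chosen with earlier results of these data known. Alternatives covered the extension, the minimum count, the span range, one-to-one matching, anchor merging and count scaling.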

Additional observations from a re-analysis of the deposited data

How the results depend on the processing

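With 1 library per group, no replicate could be left out. No paired analysis was possible because each group was 1 library and no test was made. The share of CTCF loops found in the RAD21 list was 41.5% without extension, 50.7% with 10 kb, 52.6% at a minimum count of 3 in both lists, 65.25% at 10 in both, 96.4% at 10 in the CTCF loops alone, 43.3% with one-to-one matching, 47.2% for spans of 40 kb to 1 Mb and 28.1% with identical coordinates. The share of RAD21 loops found in the CTCF list was 47.8%, 56.1%, 57.0%, 66.0%, 94.1%, 49.8%, 52.6% and 32.3% in the same order. Where the matched loops are nearly or exactly as many from either side (8361 each one-to-one, 5427 each with identical coordinates), the higher RAD21 share is set by the shorter RAD21 list.

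The span ratio of RAD21-only to CTCF-only loops was 1.25 at a minimum count of 3, 1.58 at 10 and 1.04 for spans of 40 kb to 1 Mb. The ratio of whole lists was 1.10 at a minimum of 3 and 1.18 at 10, and its interval included 1 for spans of 40 kb to 1 Mb (0.9985 to 1.05). The ratio of shared to CTCF-only loops was reversed at a minimum of 3 (1.05), at 10 (1.36) and for counts of 5 to 9 (1.22), and was 0.941 without extension and 0.938 at a count of 2. The ratio of shared to RAD21-only loops was 0.985 at counts of 5 to 9, 0.928 at 3, 1.005 at 4 and 1.34 at 10 to 19, and 0.814 to 0.869 in the other alternatives.

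Mean degree was 2.46 for CTCF and 2.28 for RAD21 when anchors within 5 kb were merged, and 1.90 and 1.78 at a minimum count of 3. Both anchors were in the other list for 37.6%, 42.8% and 30.5% of CTCF-only loops and 37.5%, 41.0% and 25.5% of RAD21-only loops without extension, with 10 kb and at a minimum of 3. The median count ratio in shared loops was 1 as deposited, 1.02 scaled by shared loops and 1.16 at a summed count of 20 or more. At 20 or more CTCF counts, a choice that favours CTCF, it was 0.9905 (0.943 to 1.05). Of the loops past 2-fold, 65.2% were higher for RAD21 as reported, 51.3% with deposited counts and 76.6% when all matching loops were summed.

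Of anchors with 5 to 9 loops, 27.6% in the RAD21 list had all loops on 1 side at a minimum count of 3, against 16.1% in the CTCF list. The ratio of 0.940 (0.855 to 1.03) for RAD21-only loops in deleted cells, whose interval includes 1, moved to the other side of 1 at a count of 2. There it was 1.14 (1.002 to 1.29). Both values stayed below those of CTCF-only loops, 2.76 over all counts and 2.63 at a count of 2. The cause of these changes was not tested. The alternatives with identical coordinates, pairing from the RAD21 list, loops of a given count, and all those for the side of loops and for deleted cells were chosen after seeing the data.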

Other observations

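A loop of one list whose anchors are both known to the other list may be bridged there by shorter loops that meet at an anchor between them. This held for 1044 of 4131 such CTCF-only loops (25.3%, 24.0 to 26.6) and 841 of 3099 such RAD21-only loops (27.1%, 25.6 to 28.7). Shared loops were bridged in the other list at 22.8% (22.0 to 23.7) for CTCF and 23.2% (22.4 to 24.1) for RAD21, in addition to being listed directly. Bridging depends on span, and at 200 to 500 kb the shares were 34.2% (31.7 to 36.8) for CTCF-only and 33.7% (31.9 to 35.6) for shared CTCF loops, and 34.7% (31.9 to 37.6) for RAD21-only and 32.95% (31.1 to 34.8) for shared RAD21 loops. At that span the intervals overlapped in both lists. At 500 to 1000 kb CTCF-only loops were bridged less often than shared CTCF loops, at 34.5% (30.8 to 38.5) against 42.3% (38.7 to 46.0), whereas the RAD21 shares of 36.2% and 37.4% had overlapping intervals (31.8 to 40.8 and 33.9 to 41.0).

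Over the 23 chromosomes with at least 100 loops, the shared share of CTCF loops ran from 42.1% (37.0 to 47.4) on chromosome 4 to 50.0% (43.7 to 56.3) on chromosome X, a range whose ends overlap in their intervals. The shared share of RAD21 loops ran from 43.45% (37.6 to 49.4) on chromosome 18 to 59.7% (55.4 to 63.9) on chromosome 16, whose intervals do not overlap. The relative length of the lists moved with these shares: chromosome 16 held 504 RAD21 and 718 CTCF loops, and chromosome 18 held 267 and 236. The RAD21 loops of chromosome 16 also had the highest mean count, 5.35. The part of list length and of mean count in these shares was not tested.

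In ZNF143-deleted cells, 30.0% (29.3 to 30.7) of CTCF loops were found in the RAD21 list and 41.3% (40.4 to 42.2) of RAD21 loops in the CTCF list. The ratio of median spans of RAD21 to CTCF loops there was 1.17 (1.14 to 1.21), against 1.04 in wild-type cells. The lists of deleted cells have lower total counts, 46220 and 33460, and whether the genotypes differ in these measures was not tested.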
